A study of Homo sapiens with 6 samples.

Results

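Aminoacyl-tRNA synthetases are the enzymes that join each amino acid to its transfer RNA, so that the ribosome can read a codon as an amino acid. The genes described here were the 34 synthetase genes taken by name from the 54259 gene symbols of the count table, 19 that encode the cytosolic enzymes and 15 that encode the mitochondrial enzymes. A symbol without a final 2 was taken as cytosolic, including EPRS, and a symbol that ends in 2 as mitochondrial. All 34 symbols were found and all 34 passed the filter on low counts. The genes of the valine enzymes were not analysed here.

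RNA from MDA-MB-231, a human breast cancer cell line of mesenchymal appearance, was sequenced in 3 libraries of MDA-MB-231 shBry, cells that carry a short hairpin RNA against the transcription factor brachyury, and in 3 libraries of MDA-MB-231 shNC, the control cells with a hairpin that has no stated target. All 6 libraries share this one cell line, and neither the number of hairpins or clones behind shBry nor separate cultures are given in the sources used here. The p-values therefore measure the spread between these libraries, which may be technical. The comparison asks which genes differ between the cells labelled shBry and those labelled shNC.

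The targeted gene could be used to check neither the labels nor the knockdown. The study describes constitutive overexpression of brachyury in this cell line, which the counts of the control cells do not show. Brachyury, listed as T, had 0 counts in 6 of 6 libraries, which allows a level of at most 0.131 to 0.155 CPM by counting error, where CPM is the read count of a gene scaled to 1000000 counts per library. The libraries held 19319411 to 22985371 counts on genes, and the first principal component, with 75.7% of the variance, placed all shBry libraries apart from all shNC libraries. The text of the series calls the RNA pericardial. The 4 of 4 mesenchymal genes listed for the MDA-MB-231 line, VIM, AXL, CD44 and MSN, were expressed in every library. Their summed level was 7330 to 7690 CPM in shNC and 6430 to 6660 CPM in shBry. These genes are not specific to this line, so they cannot tell it from other mesenchymal cells. Of 8 mesothelial and heart markers, 5 were under 1 CPM in every library and MYH6 was at 0, with a sum of 40.3 to 42.1 CPM in shNC and 51.4 to 57.8 CPM in shBry. Of the other 3 of these markers, MSLN was at 27.6 to 49.2 CPM and LRRN4 at 3.06 to 7.8 CPM in all libraries, and CALB2 had 222 counts in shNC library 3 and 14 to 30 counts in the others. The 4 leukocyte markers were under 1 CPM in every library. Of the 3 luminal markers, ESR1 and PGR were under 1 CPM and GATA3 was at 9.35 to 13.9 CPM.

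Cytosolic synthetases charge the transfer RNAs of the ribosomes that translate nuclear genes, and 8 of the 19 genes encode subunits of the multisynthetase complex, in which several synthetases are held together by scaffold proteins. Mitochondrial synthetases are encoded in the nucleus, imported, and serve the few proteins made from mitochondrial DNA. GARS and KARS each encode both the cytosolic and the mitochondrial enzyme, so no separate gene for mitochondrial glycine or lysine charging exists. The transcription factor ATF4, the effector of the integrated stress response, is known to bind C/EBP-ATF response elements in the promoters of several cytosolic synthetase genes.

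Because of that background, the letters of this element, TGATGNAA on either strand (TTNCATCA when read on the other strand), were searched in RefSeq promoter windows of assembly GRCh38.p14, from 250 bases before to 50 bases after the gene start. A window was matched for 30 of the 34 genes, and DARS, LARS, YARS and AARS2 were the unmatched ones. The letters occurred in 7 of 16 cytosolic genes and in 1 of 14 mitochondrial genes, against 1270 of 35116 windows (3.62%) and 1217 of 27305 genes (4.46%) overall. The matches are shown with 11 bases on each side, in the direction of the gene, with the matched letters in capitals, because they are a sequence feature that the choice of genes did not use.
AARS: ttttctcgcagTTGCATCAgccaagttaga
CARS: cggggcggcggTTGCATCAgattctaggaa
GARS: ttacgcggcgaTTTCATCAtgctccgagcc
IARS: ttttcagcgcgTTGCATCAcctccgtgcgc
MARS: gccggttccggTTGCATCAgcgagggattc
NARS: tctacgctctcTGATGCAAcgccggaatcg
TARS: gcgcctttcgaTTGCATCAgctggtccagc
YARS2: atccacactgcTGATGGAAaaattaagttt

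The shown stretches lie at chr16:70289675-70289704 (minus strand) for AARS, chr11:3057407-3057436 (minus) for CARS, chr7:30594834-30594863 (plus) for GARS and chr9:92293692-92293721 (minus) for IARS. Those of MARS, NARS, TARS and YARS2 lie at chr12:57488053-57488082 (plus), chr18:57621804-57621833 (minus), chr5:33440956-33440985 (plus) and chr12:32756076-32756105 (minus). In 5 of the 7 cytosolic genes the capitals read TTGCATCA, while NARS carried the same letters in the opposite orientation and GARS differed in the variable base. The match began between 33 bases before and 15 bases after the start in 6 of the 7 cytosolic genes, and 187 bases before it in AARS. A match of letters is a description and does not show that a factor was bound.

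More cytosolic synthetase genes were higher than lower in MDA-MB-231 shBry cells. In the edgeR quasi-likelihood fit over 15277 tested genes, 11 of the 19 were called higher in shBry and 1 was called lower, where a gene was called at a fold change above 1.5 and a p below 0.05 after Benjamini-Hochberg adjustment. Among all tested genes 17.1% were called higher and 15.2% were called lower, against 57.9% and 5.26% of the cytosolic synthetases. The median log2 fold change was 0.80 over the 19 genes and 0.03 over all tested genes. Without the limit on fold change, 14 rose and 2 fell, beside 28.0% and 25.3% of all tested genes. The CPM values of the 2 groups did not overlap for 13 higher and 2 lower cytosolic genes, beside 30.6% and 28.9% of all tested genes. In bulk RNA, a different share of some cells and a different amount of RNA per cell cannot be told apart.

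**Figure D1:**
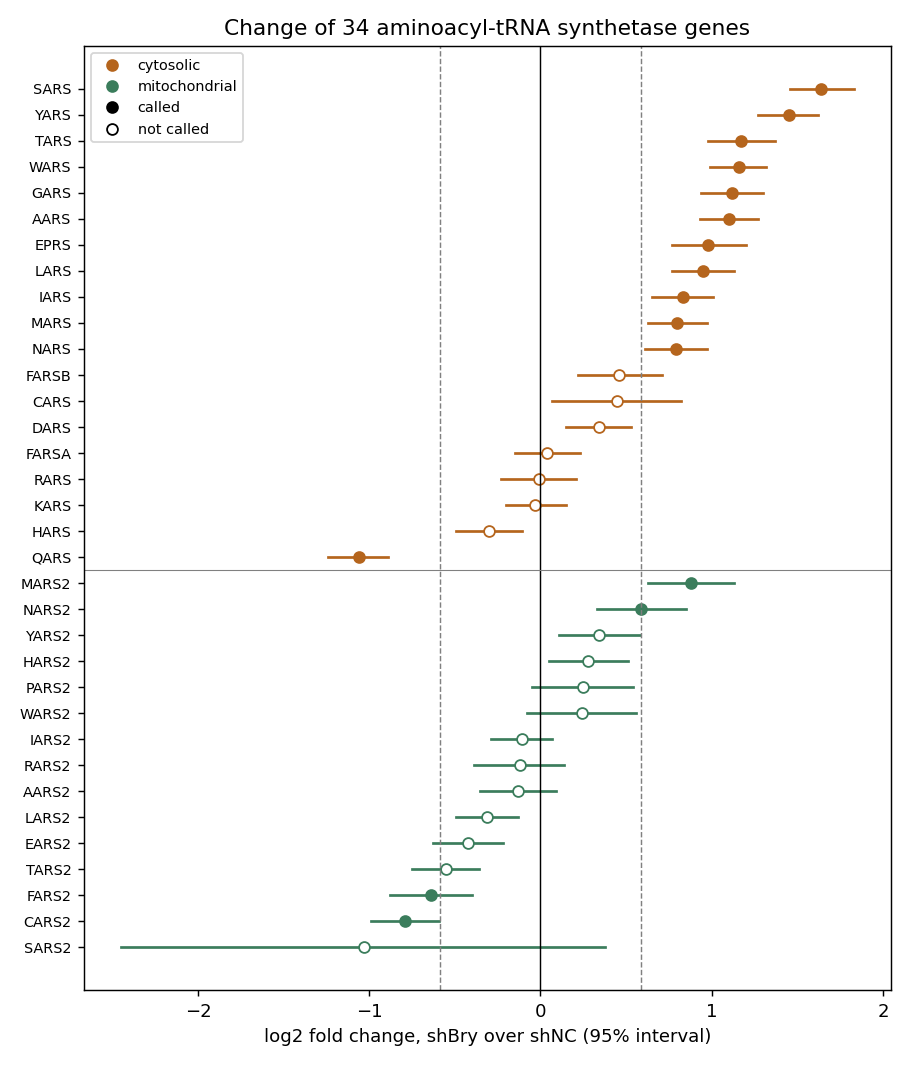
The log2 fold change of shBry over shNC (x axis) is plotted for the 34 synthetase genes (y axis), with bars for the 95% interval, filled points for called genes and dashed lines at the fold limit of 1.5. Of the 19 cytosolic genes 11 lie to the right of the limit and QARS lies to the left, while the 15 mitochondrial genes spread on both sides of 0 and SARS2 has the widest interval.

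SARS, the serine enzyme (chr1:109213918-109238169, plus strand), had the largest increase of the 34 genes. Its level was 303, 309 and 310 CPM in the shNC libraries and 1060, 868 and 955 CPM in the shBry libraries. Every shBry library was above every shNC library, with a log2 fold change of 1.64 ± 0.09 (SE, n = 3 per group, adjusted p = 2.3e-09 by edgeR), or 3.12-fold. YARS, the tyrosine enzyme (chr1:32775237-32818153, minus strand), came next. It rose from 195, 188 and 188 CPM to 564, 483 and 513 CPM (1.45 ± 0.08 on the log2 scale, adjusted p = 4.7e-09).

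TARS, AARS, GARS and WARS formed a group of similar size, with rises between 2.14-fold and 2.25-fold. TARS, the threonine enzyme, was at 517, 503 and 585 CPM in shNC and at 1310, 1080 and 1220 CPM in shBry. Its log2 fold change was 1.17 ± 0.09 (adjusted p = 1.2e-07). WARS, the tryptophan enzyme, which is also an interferon-induced gene, rose from 178, 169 and 177 CPM to 413, 372 and 382 CPM (log2 fold change 1.16 ± 0.08, adjusted p = 2.7e-08). GARS, whose glycine enzyme serves both compartments, rose from 205, 205 and 224 CPM to 468, 420 and 490 CPM (1.12 ± 0.08 on the log2 scale, adjusted p = 8.2e-08). AARS, the alanine enzyme, rose from 381, 377 and 376 CPM to 866, 763 and 799 CPM (1.10 ± 0.08, adjusted p = 4.7e-08). The 95% intervals of these 4 log2 fold changes all lay between 0.93 and 1.37, so their order is within error. In the annotation, 10.6% of the exon bases of WARS lie in exons of other genes, mainly WDR25 on the other strand, and whether the counting used strand is not given in the sources used here.

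NARS, the asparagine enzyme, was the remaining called gene outside the multisynthetase complex. It rose from 73.7, 73.1 and 83.2 CPM to 139, 129 and 130 CPM (log2 fold change 0.79 ± 0.08, adjusted p = 2.9e-06). In all, 7 of the 11 genes outside the complex were called higher (63.6%, beside 17.1% of all tested genes) and 0 were called lower (beside 15.2%), with a median log2 fold change of 1.10 and a range from -0.30 to 1.64.

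Among the 8 genes of the multisynthetase complex, 4 were called higher (50%) and 1 was called lower (12.5%), beside 17.1% and 15.2% of all tested genes, with a median of 0.57 and a range from -1.06 to 0.98. EPRS, the bifunctional enzyme for glutamate and proline, rose from 101, 102 and 132 CPM to 214, 227 and 220 CPM (log2 fold change 0.98 ± 0.10, adjusted p = 2e-06). LARS, the leucine enzyme, which also takes part in leucine sensing, rose from 119, 123 and 142 CPM to 249, 240 and 252 CPM (0.95 ± 0.08, adjusted p = 4.9e-07). These increases sat beside similar ones of the isoleucine and methionine enzymes. IARS rose from 211, 216 and 240 CPM to 362, 406 and 419 CPM (0.83 ± 0.09, adjusted p = 1.9e-06). MARS rose from 244, 237 and 244 CPM to 455, 387 and 423 CPM (0.80 ± 0.08, adjusted p = 1.7e-06). In MARS, 13.3% of the exon bases lie in exons of other genes, mainly ARHGAP9 on the other strand.

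QARS, the glutamine enzyme of the same complex (chr3:49095932-49105135, minus strand), went the other way. It had 5592, 5386 and 4719 counts in shNC and 2340, 2617 and 2748 counts in shBry, or 249 ± 11 and 119 ± 8.12 CPM (SD, n = 3), and the groups did not overlap. Its log2 fold change was -1.06 ± 0.08 (adjusted p = 1.1e-07), which is a 2.09-fold higher level in shNC, and it was the only cytosolic synthetase called lower. No separate gene for a mitochondrial enzyme that joins glutamine to its transfer RNA is on the list. Mitochondria are known to make their charged glutamine transfer RNA by way of the glutamate enzyme and an amidotransferase.

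The other 3 genes of the complex differed little between the groups or stayed below the fold limit. KARS, the lysine enzyme, was at 390, 365 and 393 CPM in shNC and at 406, 344 and 376 CPM in shBry, and RARS, the arginine enzyme, was at 62.9, 75.6 and 82.8 CPM and at 69.2, 74.3 and 75.9 CPM. Their 95% intervals ran from -0.20 to 0.15 and from -0.23 to 0.21 on the log2 scale, so changes above the fold limit of 1.5, a log2 value of 0.585, lay outside the intervals. DARS, the aspartate enzyme, was higher in every shBry library, with 78.6, 83.4 and 91.9 CPM against 102, 106 and 114 CPM, but its log2 fold change of 0.34 ± 0.09 (adjusted p = 0.0045) was under the fold limit.

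The phenylalanine enzyme is built from 2 kinds of subunit, FARSA and FARSB, which did not show the same values. FARSA was at 183, 179 and 164 CPM in shNC and at 197, 163 and 183 CPM in shBry, with a log2 fold change of 0.04 and an interval from -0.15 to 0.23. FARSB was at 53.7, 59.2 and 75.3 CPM in shNC and at 81.3, 92.3 and 85.7 CPM in shBry, with a log2 fold change of 0.46 ± 0.11 (adjusted p = 0.0035). FARSB was under the fold limit with all libraries and past it without shNC library 3, at 0.59 (adjusted p = 0.00032). The difference between the subunits was not tested.

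CARS, the cysteine enzyme, had overlapping groups, at 43.8, 30.5 and 34.1 CPM in shNC and at 49.4, 35.9 and 62.8 CPM in shBry. Its log2 fold change was 0.45 ± 0.17 (adjusted p = 0.042), under the fold limit, and it was called without shBry library 2, at 0.62 (adjusted p = 0.00095), and without shNC library 1, at 0.60 (adjusted p = 0.012). CARS no longer passed adjusted p below 0.05 with DESeq2 (adjusted p = 0.24), with limma-voom (0.06) or without TMM (0.066). The same held without shBry library 1 (adjusted p = 0.052), shBry library 3, at 0.23 (adjusted p = 0.27), shNC library 2, at 0.31 (0.2), or shNC library 3 (0.15), so its rise past adjusted p alone depends on the tool and on single libraries. HARS, the histidine enzyme, was lower in every shBry library, with 149, 147 and 142 CPM in shNC and 133, 109 and 114 CPM in shBry. Its log2 fold change was -0.30 ± 0.09 (adjusted p = 0.010), also under the fold limit. Without shBry library 3 the adjusted p of HARS was 0.054 by edgeR.

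**Figure D2:**
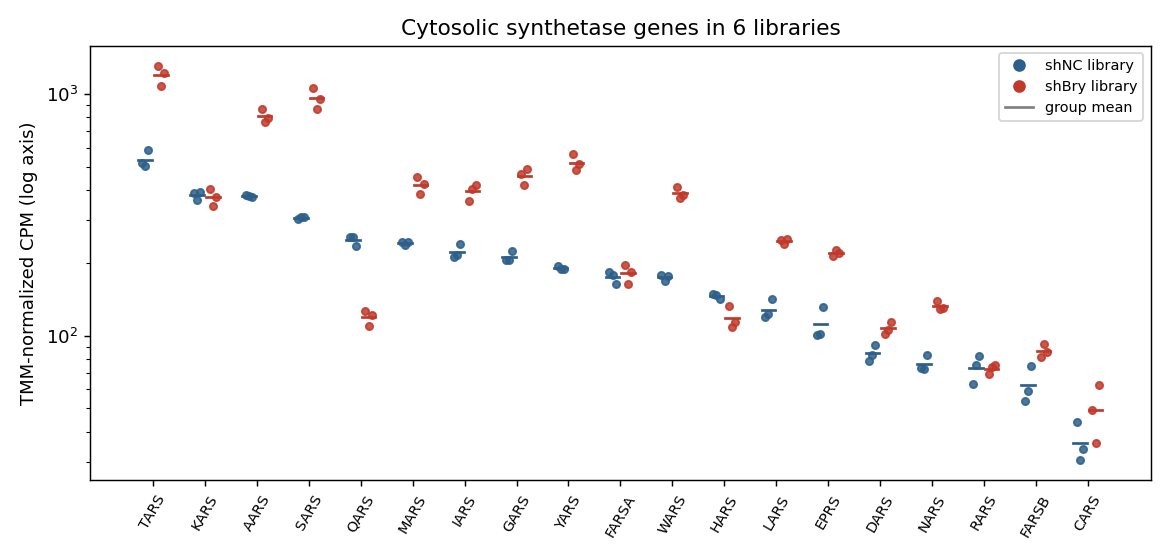
The TMM-normalized CPM (y axis, log scale) of the 19 cytosolic synthetase genes (x axis, ordered by the shNC mean) is plotted with a point for each library and a line for each group mean. TARS, SARS, AARS and YARS show wide gaps, KARS, FARSA and RARS overlap, and QARS is the gene whose shBry points lie far below its shNC points.

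The order of the cytosolic genes by level was different in the 2 groups. On the scale of CPM per kilobase of exon, SARS and KARS shared the top in shNC, with levels of 158 ± 1.93 and 157 ± 6.27 (SD, n = 3), which do not differ beyond their spread. In shBry, SARS stood at 494 ± 49.6, TARS at 264 ± 24.6 and AARS at 233 ± 15.1, and KARS at 154 ± 12.8 had moved from rank 2 to rank 6. QARS moved from rank 5, at 86.2 ± 3.82, to rank 15, at 41.3 ± 2.81. Exact ranks are partly within the spread. In shBry, YARS stood beside KARS at 161 ± 12.6, and NARS beside QARS at 42.7 ± 1.78. In shNC, FARSA stood beside QARS at 84.0 ± 4.96. The ranks also depend on the exon length, for which the exons of all coding transcripts of a gene were joined. CARS was the lowest in both groups, at 11.6 ± 2.21 and 15.8 ± 4.32 CPM per kilobase.

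Added over the 19 genes, the cytosolic synthetases took 0.369% to 0.398% of all counts in shNC and 0.662% to 0.698% in shBry. Their summed level rose from 3790 ± 115 to 6870 ± 429 CPM (SD, n = 3), a ratio of 1.81. TARS, SARS and AARS alone made up 56.9% of this difference of 3080 CPM, so the sum mostly follows these genes. The 2 structural classes of synthetase, which differ in the fold of the catalytic domain, had similar counts. Of the 8 class I genes 5 were called higher (62.5%) and 1 lower (12.5%), with a median of 0.82. Of the 10 class II genes 5 were called higher (50%) and 0 lower, with a median of 0.63. EPRS, which holds both classes, was left out. Over all tested genes 17.1% were called higher and 15.2% lower.

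Of the 7 cytosolic genes with the letters of the response element, shown above by sequence, 6 were called higher (85.7%, beside 17.1% of all tested genes). Their log2 fold changes ran from 0.45 for CARS to 1.17 for TARS, with a median of 0.83. Of the 9 cytosolic genes whose windows lack these letters, 3 were called higher (33.3%) and 1 was called lower (11.1%, beside 15.2% of all tested genes), with a median of 0.04. SARS, with the largest change of all, was among these 9, and YARS had no window. The counts are a description of few genes, and the difference between the 2 sets was not tested.

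Mitochondrial synthetase genes did not move together. Of the 15 genes, 2 were called higher and 2 lower (13.3% each, beside 17.1% and 15.2% of all tested genes), and the median log2 fold change was -0.12. Past adjusted p alone there were 4 higher and 5 lower genes, beside 28.0% and 25.3% of all tested genes. The groups did not overlap for 5 higher and 6 lower genes, beside 30.6% and 28.9% of all tested genes. Their summed level was 574 ± 7.0 CPM in shNC and 515 ± 31.6 CPM in shBry, a ratio of 0.897.

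CARS2, the mitochondrial cysteine enzyme (chr13:110641412-110713603, minus strand), was called lower. It was at 59.5, 60.2 and 60.7 CPM in shNC and at 37.4, 32.4 and 34.6 CPM in shBry (log2 fold change -0.79 ± 0.09, adjusted p = 6.7e-06). FARS2, the mitochondrial phenylalanine enzyme, which acts as a single chain, was the other gene called lower. It was at 24.2, 24.9 and 24.3 CPM and at 15.9, 15.1 and 16.0 CPM (-0.64 ± 0.11, adjusted p = 0.00023). TARS2, the threonine enzyme, was lower without overlap, at 74.5, 77.9 and 77.3 CPM and at 56.4, 46.6 and 53.6 CPM, but at -0.55 ± 0.09 (adjusted p = 0.00017) it was just under the fold limit. It passed the limit without shBry library 1, at -0.61 (adjusted p = 7.6e-05).

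EARS2, the glutamate enzyme that also starts the mitochondrial glutamine route, and LARS2, the leucine enzyme, were lower with smaller differences. EARS2 was at 56.8, 54.1 and 51.8 CPM in shNC and at 44.6, 38.7 and 38.2 CPM in shBry (log2 fold change -0.42 ± 0.10, adjusted p = 0.0020). LARS2 was at 77.0, 70.9 and 73.9 CPM and at 61.8, 56.2 and 60.8 CPM (-0.31 ± 0.08, adjusted p = 0.0068). Neither passed the fold limit.

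MARS2, the mitochondrial methionine enzyme (chr2:197705369-197708387, plus strand), was called higher. It was at 16.5, 19.4 and 15.3 CPM in shNC and at 31.3, 31.4 and 31.9 CPM in shBry, with a log2 fold change of 0.88 ± 0.12 (adjusted p = 2.3e-05). NARS2, the asparagine enzyme, rose from 14.4, 14.7 and 16.6 CPM to 25.1, 21.6 and 22.0 CPM (0.59 ± 0.12, adjusted p = 0.0010). It sat just past the fold limit and lost its call in 9 of 13 alternative fits, at 0.51 to 0.58, among them those without shBry library 1, shNC library 1 or shNC library 2. For methionine and asparagine, both the cytosolic and the mitochondrial gene were thus called higher, for asparagine with the limit just given for NARS2.

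YARS2 and HARS2 were higher in every shBry library and stayed under the fold limit. YARS2, the tyrosine enzyme and the mitochondrial gene with the letters of the response element, was at 29.8, 27.8 and 25.1 CPM in shNC and at 37.1, 31.9 and 35.8 CPM in shBry (log2 fold change 0.34 ± 0.11, adjusted p = 0.017). HARS2, the histidine enzyme, was at 37.8, 35.5 and 37.0 CPM and at 48.0, 38.0 and 47.8 CPM (0.28 ± 0.11, adjusted p = 0.041). HARS2 no longer passed adjusted p below 0.05 with RLE factors (0.058), DESeq2 (0.076), limma-voom (0.052) or no filter (0.064). The same held in edgeR with any single library left out except shBry library 2, at adjusted p of 0.073 to 0.17. HARS (chr5:140673904-140691862, minus strand) and HARS2 (chr5:140691426-140699318, plus strand) lie head to head and share 437 bases of their spans. In exons of other genes lie 8.38% of the exon bases of HARS and 15.8% of those of HARS2. Reads in the shared stretch could be assigned to either gene if the counting did not use strand.

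The remaining 6 mitochondrial genes did not pass adjusted p below 0.05. AARS2, IARS2, RARS2, PARS2 and WARS2 had log2 fold changes between -0.13 and 0.25, with intervals from -0.39 at the lowest to 0.56 at the highest, so for these 5 genes changes above the fold limit lay outside the intervals. SARS2 was close to the floor of the data, with 99, 17 and 13 counts in shNC and 11, 10 and 43 counts in shBry. The log2 fold change of SARS2 was -1.03 with an interval from -2.45 to 0.38, and it was 0.42 without shNC library 1 and -2.0 without shBry library 3, so no direction can be given. In SARS2, 57.0% of the exon bases lie in exons of other genes, mainly AC011455.2, and 47.7% of its stretches of 50 bases occur in transcripts of other genes.

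**Figure D3:**
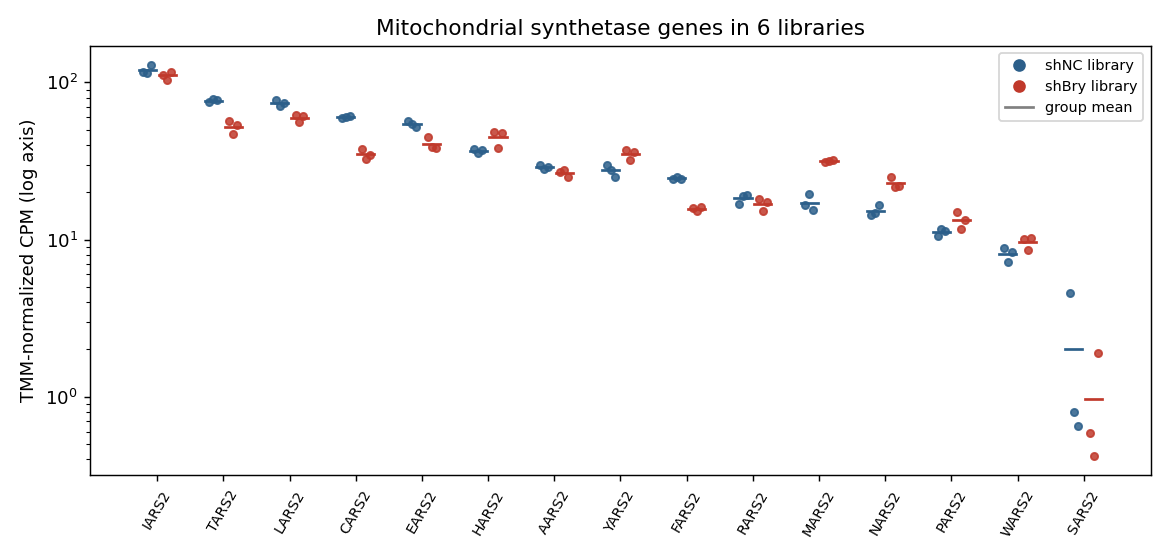
The TMM-normalized CPM (y axis, log scale) of the 15 mitochondrial synthetase genes (x axis, ordered by the shNC mean) is plotted with a point for each library and a line for each group mean. CARS2 and FARS2 have shBry points well below the shNC points, MARS2 and NARS2 have them above, and the SARS2 points scatter over the widest range within each group.

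By level per kilobase, IARS2 was the highest mitochondrial gene in both groups, with 33.5 ± 2.24 CPM per kilobase in shNC and 31.1 ± 1.93 in shBry. In shNC its neighbour CARS2, at 32.0 ± 0.318, did not differ from it beyond the spread. In shBry the neighbours TARS2 and CARS2 stood at 18.7 ± 1.81 and 18.5 ± 1.35 CPM per kilobase, well below IARS2. SARS2 was the lowest in both groups, at 0.902 ± 0.993 and 0.439 ± 0.367.

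For 16 pairs of a cytosolic and a mitochondrial gene of the same amino acid, the ratio of counts was taken in each library, which does not depend on library scaling. EPRS enters 2 pairs and FARS2 enters 2 pairs, so the pairs are not independent. In 13 pairs every shBry ratio was above every shNC ratio, in 1 pair every shBry ratio was below, and in 2 pairs the groups overlapped. The share over ratios of other gene pairs was not computed. For single genes, 30.6% of all tested genes were higher and 28.9% lower without overlap. With 3 libraries against 3 the two-sided exact permutation test cannot go below p = 0.1. The 14 pairs without overlap reach that value by construction, so it adds nothing to the counts above.

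The threonine pair shifted clearly and with little spread. TARS over TARS2 was 6.93, 6.46 and 7.57 in shNC and 23.1, 23.3 and 22.8 in shBry, a difference of 1.73 on the log2 scale. EPRS over EARS2 went from 1.78, 1.88 and 2.55 to 4.8, 5.88 and 5.77, and LARS over LARS2 from 1.55, 1.74 and 1.92 to 4.02, 4.27 and 4.14. In these 3 pairs the cytosolic gene rose while the mitochondrial gene had a negative log2 fold change. CARS over CARS2 went from 0.737, 0.506 and 0.562 to 1.32, 1.11 and 1.81. Per kilobase of exon, the level of CARS2 was above that of CARS in shNC, with 32.0 ± 0.318 against 11.6 ± 2.21 CPM per kilobase, and in shBry they were closer, with 18.5 ± 1.35 against 15.8 ± 4.32, which is within the spread.

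HARS over HARS2 was the pair that went down, from 3.94, 4.15 and 3.84 to 2.76, 2.88 and 2.38. MARS over MARS2 overlapped, with mean ratios of 14.2 and 13.3, as both genes rose. RARS over RARS2 overlapped as well, at 4.0 and 4.35. SARS over SARS2 had the widest spread, from 66.9 to 477 in shNC and from 501 to 2060 in shBry, since it rests on the few counts of SARS2.

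**Figure D4:**
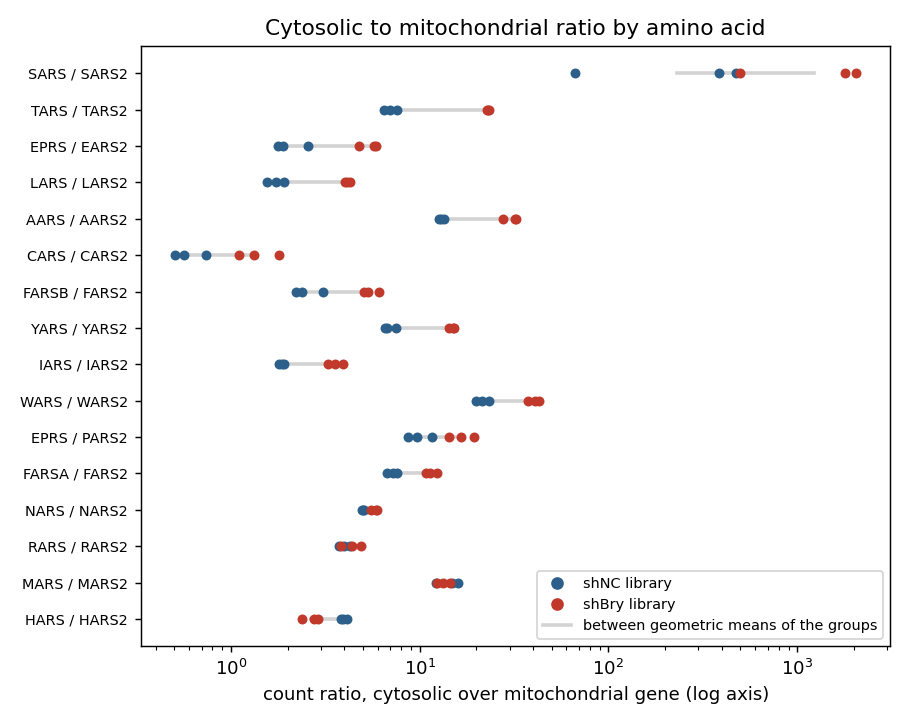
The ratio of counts of the cytosolic over the mitochondrial gene (x axis, log scale) is plotted for 16 pairs (y axis), with a point for each library and a grey line between the geometric means of the groups. The shBry points lie to the right in 13 pairs and to the left for HARS over HARS2. The 2 groups overlap in range for MARS over MARS2 and RARS over RARS2.

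The scaffold genes of the multisynthetase complex showed no common direction. AIMP2 was called higher, from 42.7, 42.2 and 42.0 CPM in shNC to 67.8, 51.8 and 74.0 CPM in shBry (log2 fold change 0.61 ± 0.12, adjusted p = 0.00059), and it lost the call without shBry library 1, shBry library 3 or shNC library 3. In AIMP2, 28.9% of the exon bases lie in exons of other genes, mainly EIF2AK1. AIMP1 was at 0.41 ± 0.12 (adjusted p = 0.013) and EEF1E1, also named AIMP3, was at -0.38 ± 0.13 (adjusted p = 0.021), both under the fold limit. In EEF1E1, 18.7% of the exon bases lie in exons of other genes on the same strand, mainly EEF1E1-BLOC1S5. In AIMP1 the share is 11.6%, mainly TBCK on the other strand.

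Other genes that handle charged or uncharged transfer RNA did not follow the cytosolic synthetases as a list. Of 14 genes of charging, editing and the mitochondrial route, 3 were called higher (21.4%) and 1 lower (7.14%), near the 17.1% and 15.2% of all tested genes, with a median log2 fold change of 0.20. SEPSECS, which completes selenocysteine on its transfer RNA, rose from 4.34 ± 0.807 to 14.1 ± 1.50 CPM (1.71 ± 0.17, adjusted p = 1.4e-06). DTD1, which removes D-amino acids from transfer RNA, was at 0.71 ± 0.10 (adjusted p = 4.4e-05). The gene called lower was GATB, a subunit of the amidotransferase of the mitochondrial glutamine route, at -0.67, named after its value was seen.

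Of 29 tested genes of tRNA maturation, 6 were called higher (20.7%) and 4 lower (13.8%), near the 17.1% and 15.2% of all tested genes. Their median was 0.28. Past adjusted p alone, 15 of the 29 were higher and 7 lower, beside 28.0% and 25.3% of all tested genes. The groups did not overlap for 15 higher and 8 lower genes, beside 30.6% and 28.9%. The largest rise and the largest fall of this list were in subunits of ribonuclease P, which trims the front end of tRNA precursors. RPP40 rose from 5.07 ± 0.203 to 17.2 ± 2.05 CPM (log2 fold change 1.76 ± 0.15, adjusted p = 2.3e-07), and POP5 fell from 32.6 ± 2.83 to 11 ± 1.13 CPM (-1.57 ± 0.13, adjusted p = 1.6e-07). ADAT3, a subunit of the tRNA adenosine deaminase, was called lower at -1.18 ± 0.20 (adjusted p = 0.00018). Of 19 tested genes of RNA polymerase III, which transcribes transfer RNA genes, and its factors, 4 were called higher (21.1%) and 3 lower (15.8%), again near 17.1% and 15.2% over all tested genes, with a median of 0.08. POLR3D and POLR3C, both polymerase subunits, were at 1.57 ± 0.10 (adjusted p = 2.3e-08) and 1.0 ± 0.10 (adjusted p = 1.2e-06), and GTF3C5 of the factor TFIIIC was at -0.88 ± 0.09 (adjusted p = 1.5e-06).

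Genes of the elongation step had medians near that of all genes. In the cytosolic list 1 of 10 genes was called higher and 0 lower, with a median of 0.04, and that gene was EIF5A2 (0.95 ± 0.21, adjusted p = 0.0019). In the mitochondrial list 3 of 9 were called higher and 1 lower, with a median of 0.04. None of the genes called higher there is an elongation factor, while the gene called lower is. Over all tested genes 17.1% were called higher and 15.2% lower, against 10% and 0% of the cytosolic list and 33.3% and 11.1% of the mitochondrial list. The initiation factor MTIF2 was at 0.81 ± 0.10 (adjusted p = 7.2e-06), the recycling factor MRRF at 0.78 ± 0.09 (adjusted p = 1e-05), and the elongation factor TSFM at -0.76 ± 0.13 (adjusted p = 0.00021).

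The integrated stress response list, whose genes act around ATF4, had the largest median of the lists, 1.76, with 14 of 18 genes called higher (77.8%) and 1 lower (5.56%), beside 17.1% and 15.2% of all tested genes. CHAC1, which breaks down glutathione, rose from 8.98 ± 0.288 to 116 ± 8.87 CPM (log2 fold change 3.69 ± 0.10, adjusted p = 3.7e-12). PPP1R15A, the stress-induced partner of the phosphatase of eIF2-alpha, rose from 148 ± 4.84 to 1280 ± 150 CPM (3.12 ± 0.10, adjusted p = 1.3e-11). NUPR1, a stress-induced nuclear protein, had few counts, with 0.254 ± 0.151 and 2.83 ± 0.998 CPM (3.44 ± 0.43, adjusted p = 1.3e-05). ATF4, named after its values were seen, was at 421, 441 and 430 CPM in shNC and at 714, 578 and 696 CPM in shBry (0.62 ± 0.09, adjusted p = 4.2e-05). EIF2AK4, the kinase GCN2 that senses uncharged transfer RNA, likewise named afterwards, was lower at -0.45 ± 0.09 (adjusted p = 0.00076), under the fold limit. It did not stand out among the eIF2-alpha kinases of the list, also named afterwards. EIF2AK1 was the gene called lower, at -0.77 ± 0.08 (adjusted p = 3.3e-06). EIF2AK2 was at -0.44 ± 0.17 (adjusted p = 0.041) and EIF2AK3 at 0.49 ± 0.15 (adjusted p = 0.011), both under the fold limit. Whether these genes and the synthetases are linked was not tested.

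**Figure D5:**
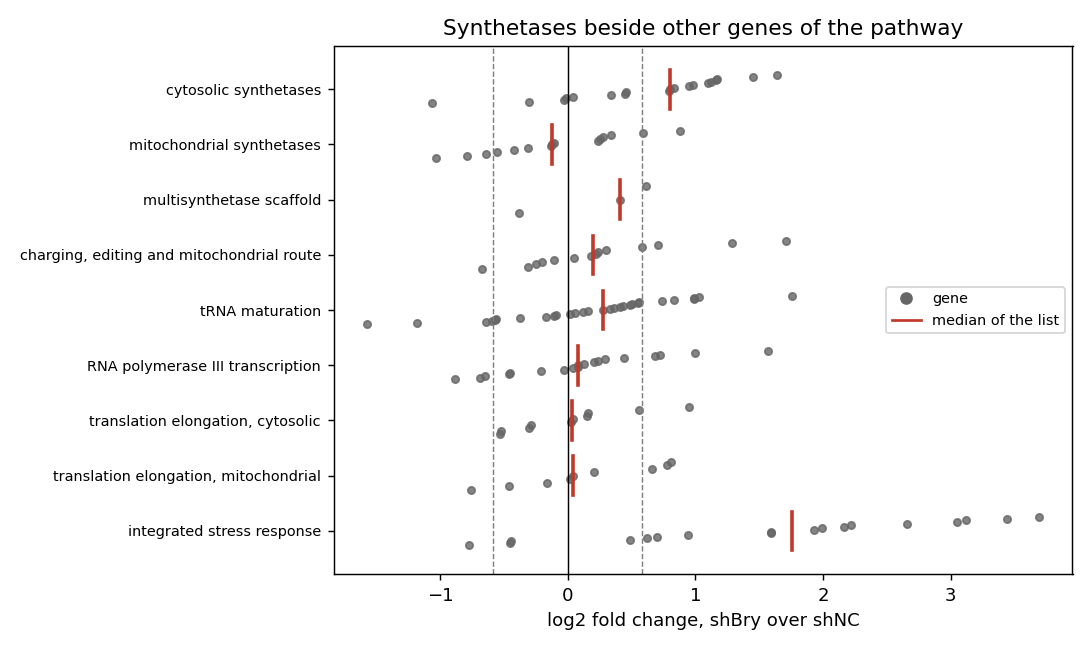
The log2 fold change of shBry over shNC (x axis) is plotted for each tested gene of the 2 synthetase groups and the 7 other lists (y axis), with a red line at the median of each list and dashed lines at the fold limit of 1.5. The medians of the cytosolic synthetases (0.80) and of the integrated stress response list (1.76) lie to the right of the limit, and the other medians lie between -0.12 and 0.41.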

How the data were processed

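Per the labels and the methods of the study, RNA from MDA-MB-231 shBry and shNC cells was sequenced in 3 libraries each, grouped by their titles. The authors deposited raw counts, whole numbers of reads per gene symbol with no normalization. The submitters' processing notes name HISAT2 2.0.4, HTSeq and GRCh38. The annotation and the strand setting are not given in the sources used here.

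Genes were filtered with filterByExpr (minimum count 10), scaled with TMM and tested by quasi-likelihood in edgeR 4.0.16 (R 4.3.3), with Benjamini-Hochberg adjustment over all 15277 tested genes. Standard errors were derived from the fitted change and its F statistic. All CPM carry the TMM scaling, and the floor is 3 counts of the library total. The floor covers counting error only. The synthetase genes, the 7 pathway lists, the markers and the tests were chosen with earlier results of these data known. All 34 synthetase genes, the scaffold genes and, in each other list, up to 3 called genes with the largest absolute change were named, except 1 gene that is not reported here. Positions, exon overlap and shared stretches came from GENCODE 29 on GRCh38, matched by symbol, and promoter windows came from RefSeq (GRCh38.p14). The scripts were tested on simulated data. The alternatives were other scalings, DESeq2 1.42.0, limma-voom (limma 3.58.1), 2 other filters, unadjusted p, other fold limits, the replicate number as a block, leaving out each library in turn, and leaving out synthetase genes with over 20% of their exon bases in other genes.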

Additional observations from a re-analysis of the deposited data

How the results depend on the processing

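The 11 cytosolic synthetase genes called higher became 6 with a fold limit of 2 and were 11 to 12 with each library left out in turn; the 1 gene called lower became 2 with no fold limit. The median log2 fold change of the cytosolic genes was 0.75 to 0.82 with a library left out. Mitochondrial genes called higher numbered 1 without TMM, with RLE factors, with DESeq2, with limma-voom, with no filter and with at least 10 counts in every library, 1 to 2 with a library left out, 0 with a fold limit of 2 and 4 with no fold limit. Those called lower numbered 0 and 5 under these 2 limits and 2 to 3 with a library left out. Over all tested genes, 4945 were called, 2297 with a fold limit of 2 and 8139 with no fold limit.

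Of 442 fits of a single synthetase gene under 13 alternatives, 420 kept direction and side of the threshold, 9 lost the call (all NARS2), 6 gained one (CARS, FARSB, TARS2 and SARS2) and 7 turned direction. FARSA turned to -0.03 without shBry library 1 or shNC library 3 and ranged from -0.03 to 0.10 with a library left out. KARS turned to 0.02 without shBry library 2, within -0.09 to 0.02. RARS was 0.00 with limma-voom, 0.03 without shBry library 1 and 0.06 without shNC library 3, within -0.12 to 0.06. SARS2 turned to 0.42 without shNC library 1, within -2.0 to 0.42, and was -1.07 with no filter (adjusted p = 0.0031). The cause was not tested in any of these. None of the 26 other synthetase genes changed direction or call in any of these fits. Among them, HARS2 and HARS lost adjusted p below 0.05 in some fits, as given above.

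For the other lists, counts of called genes with fold limits of 2 and of none were 0 and 3 for the scaffold, 4 and 22 for tRNA maturation, 2 and 12 for RNA polymerase III, and 0 and 5 for cytosolic elongation, and with a limit of 2 they were 2 for charging and editing and 0 for mitochondrial elongation. The scaffold count was 0 with DESeq2 and with no filter and 0 to 1 with a library left out, and the cytosolic elongation count was 1 to 2. With a library left out, medians ran from 0.16 to 0.29 for tRNA maturation, 0.04 to 0.16 for RNA polymerase III, -0.14 to 0.10 for cytosolic elongation and -0.03 to 0.15 for mitochondrial elongation. The median of the integrated stress response was 1.58 with at least 10 counts in every library.

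The replicate numbers of the libraries did not pair them: deviations from the group means of same-numbered libraries correlated at 0.183, -0.084 and -0.0282. With the replicate number as a block, 4914 genes were called, and the cytosolic synthetases kept counts of 11 higher and 1 lower. The median of all genes moved between 0.01 and 0.04 over the scalings and left-out libraries. Leaving out synthetase genes with over 20% overlapping exon bases, of which SARS2 was the only one, left the counts and medians of the cytosolic and mitochondrial genes as they were. The scaffold list, where AIMP2 has 28.9% overlap, was not run this way. With 10 to 99 counts per library, SARS2 had the fewest counts of the synthetase genes. Whether depth or its overlap with other genes lies behind this was not tested. With 3 libraries per group, small changes of the low mitochondrial genes could not be resolved.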
